A study of Rattus norvegicus with 60 samples.

Results

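Blood-cell-only regions are stretches of the rat genome in which white blood cells (WBC) of P22 rats held a peak of methylated DNA while the P22 hypothalamus held none. They were chosen by peak calls: overlapping peaks of 60 samples (at least 1 bp shared) were joined into 609781 merged regions on chromosomes 1 to 20. Kept were those in which each of 11 WBC samples, and none of 12 P22 hypothalamus samples, held a peak. This gave 3119 regions, or 0.511% of all merged regions. The contrast of P22 WBC with P22 hypothalamus is therefore the choice itself and was not tested. The choice asked nothing of the hypothalamus at P1, P8, and P15, but peaks of these samples helped to draw the merged regions. These 36 samples are described here.

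The animals were rats labelled female from 3 prenatal groups: prenatal alcohol exposure (PAE), pair-fed (PF), and ad libitum-fed control (C). Each group gave 4 hypothalamus samples at each of P1, P8, P15, and P22, and 4 WBC samples at P22. The titles of the youngest samples read P0 while their age label reads 1 day, and P1 is used here. After filtering, the peak files list 11910384 to 22156238 fragments for a sample. In 3 cases a P8 and a P15 sample came from the same litter. Some samples of P1, P8, and P15 also shared a litter with P22 samples, and P22 WBC and P22 hypothalamus came from the same animals.

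DNA methylation is the addition of a methyl group to cytosine, in mammals mostly where a guanine follows. Its pattern differs between cell types, and part of it is set as cells take on their identity and as tissues mature. In meDIP-seq, an antibody against methylated cytosine pulls down methylated fragments, so a peak marks a stretch with more methylated fragments than its surroundings, and not a percentage of methylation.

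Some libraries stood apart from the rest. PF15 WBC was left out of the choice, and it held a peak in 506 of the 3119 regions, or 16.2%, which lies within the range of the hypothalamus samples of P8 and P15, and in 29.9% of all merged regions. The WBC library labelled C14 held 1631 peaks on contigs named for the Y chromosome, against 47, 67, and 146 in the other C samples, and its peaks on X came to 1.05% of its peaks on chromosomes 1 to 20, against 2.37 to 2.53%. The hypothalamus of the same animal held 71 peaks on Y contigs. The hypothalamus library PAE16 went the same way to a lesser degree, with 201 peaks on Y contigs, against 34 to 52 in the other P22 PAE samples, and X peaks at 1.56%, against 1.98 to 2.1%. Why these libraries differ from the label was not tested. Without WBC C14 in the choice there were 3292 regions, without hypothalamus PAE16 3449, and without both 3640, alternatives that were added after the data had been seen. In the 3640 regions, a hypothalamus sample held a peak in a median of 26.8% at P1, 22.0% at P8, and 11.3% at P15.

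The edge of the choice was not sharp. A further 2565 regions had a peak in 10 of the 11 WBC samples and in no P22 hypothalamus sample, and 1936 had a peak in all 11 WBC samples and in 1 P22 hypothalamus sample. At P1 the first kind held a peak in a median of 26.4% of regions per sample and the second in 46.4%. At P8 these shares were 21.3 and 42.35%, and at P15 10.5 and 25.6%, so both kinds also had lower shares at older ages.

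In WBC, the blood-cell-only regions stood somewhat above the middle of all peaks in height. Their median scaled height, the fragments over the summit after correction for differences between samples, lay between 18.1 and 19.2 across the 11 samples (median = 18.9), against 15.7 to 17.9 over all peaks of the same samples. Within a sample, the median region lay at percentile 53.9 to 61.3 of peak height. The choice required a peak in each of these samples, which was not asked of all peaks, so these heights are not independent of the choice. The regions were 425 to 3212 bp long (median = 838 bp), against a median of 617 bp over all merged regions. Regions chosen the opposite way, with a peak in all 12 P22 hypothalamus samples and in none of the 11 WBC samples, had a median of 862 bp. Those with a peak in all 60 samples had a median of 1193 bp. The blood-cell-only regions lay in 1423 of 2629 windows of 1 Mb, or 54.1%. Relative to all merged regions they were densest on chromosome 12, with 114 of 14154 regions, and sparsest on chromosome 2, with 206 of 56596.

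The 3 windows with the most blood-cell-only regions, by count alone, held 10, 10, and 9. On chromosome 10, the window that starts at 64000000 held 10 among 322 merged regions. Of the 10, 8 had a peak in at least 1 P1 sample, 7 at P8, and 3 at P15, against 61.5, 62.7, and 54.7% of the 322. On chromosome 14, the window that starts at 79000000 held 10 among 248, of which 5, 4, and 4 had a peak at these ages, against 67.7, 68.5, and 61.7% of the 248. On chromosome 16, the window that starts at 82000000 held 9 among 365, of which 2, 1, and 3 did, against 67.4, 72.1, and 69.3%. The PAE-specific DMRs listed by the original analysis overlapped 0 of the blood-cell-only regions and 0.0659% of all merged regions, so nothing is read from the 0.

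Fewer of these regions than of all merged regions held a peak in any younger hypothalamus sample. Of the 3119, 2273 (72.9%) held a peak in some sample of P1, P8, or P15, and 846 (27.1%) had none, against 87.6 and 12.4% of all merged regions. Merged regions were built from peaks of all 60 samples. Of them, 113058 had no peak in the 11 WBC or 12 P22 hypothalamus samples, and so arose through younger hypothalamus or PF15 WBC. Each blood-cell-only region instead had WBC peaks and no P22 hypothalamus peak, so the lower shares here follow in part from how regions were built and chosen. All P22 samples were immunoprecipitated in a different meDIP round from all younger samples, so a peak that was present earlier and absent at P22 cannot be told apart from a difference between the rounds. Because the tissue was measured in bulk, fewer cells that carry the methylation and less methylation per cell cannot be told apart. Calls were scattered over samples: 1767 regions (56.7%) had a peak in 3 or more of the 36, 1331 (42.7%) in 6 or more, and 363 (11.6%) in 18 or more, against 61.8, 48.3, and 26.4% of all merged regions. None had a peak in all 36, and 1 had a peak in 35. A peak was seen at every one of the 3 ages in 1189 regions (38.1%, against 48.9% of all regions), at P1 alone in 233 (7.47%, against 7.4%), at P8 alone in 132 (4.23%, against 5.9%), and at P15 alone in 110 (3.53%, against 9.31%). When a peak in 7 or more of the 12 samples of an age was asked for, 340 regions (10.9%, against 3.25% of all regions) met this at P1 alone, 257 (8.24%, against 4.48%) at P1 and P8, and 58 (1.86%, against 2.34%) at P8 alone. It was met at P15 alone by 3 (0.0962%, against 1.44%), at all 3 ages by 47 (1.51%, against 17.8%), and at no age by 2405 (77.1%, against 68.4%).

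The share of blood-cell-only regions with a peak was lower in the older hypothalamus samples. At P1 a sample held a peak in 21.8 to 32.5% of the regions (median = 25.1%), at P8 in 14.0 to 23.3% (median = 19.9%), and at P15 in 5.35 to 16.3% (median = 10.1%). The ranges of P1 and P15 did not overlap, while those of P8 overlapped both. Over all merged regions the same samples held a peak in a median of 30.1% at P1, 31.4% at P8, and 28.1% at P15. The share in blood-cell-only regions divided by the share in all regions thus had a median of 0.835 at P1, 0.643 at P8, and 0.359 at P15. The direction follows in part from the choice, since a peak at P22 in hypothalamus removed a region. Depth also differed with age, with 12521572 to 17029204 fragments at P1, 14697682 to 18648425 at P8, and 14545396 to 22156238 at P15, and its part in these shares was not tested.

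The mirror set went the other way. The 1387 regions with a peak in all 12 P22 hypothalamus samples and in none of the 11 WBC samples held a peak in a median of 40.02% at P1, 77.0% at P8, and 84.1% at P15, again with P22 fixed by the choice.

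Each DNA extraction round held samples of a single age, and the cohorts of P1 did not occur at P8 or P15, so age cannot be told apart from round and, in part, from cohort. Within P1, the median share was 26.7% in cohort Dev-3 and 24.4% in cohort NYB (n = 6 each). Within P8 it was 19.8% in Dev-4 and 20.4% in Dev-5. Within P15, where all samples came from Dev-4, it was 8.82% in extraction round 1 and 11.3% in round 2. No cohort or extraction round was shared by P1 and P15, so these values do not bear on the difference between them.

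Peaks in the younger hypothalamus were lower than the other peaks of the same samples. The median height in blood-cell-only regions divided by the median height of all peaks was 0.800 at P1, 0.771 at P8, and 0.795 at P15 (medians over 12 samples), against 1.16 in WBC. The choice required a peak in each of the 11 WBC samples and none in P22 hypothalamus, so this contrast with WBC follows in part from it. The lower heights in younger hypothalamus may do so too, since other peaks were not asked to be absent at P22. Other regions without a P22 hypothalamus peak were not set beside them. The median scaled height was 12.6 fragments at P1, 12.1 at P8, and 13.8 at P15. When heights were instead scaled by the number of fragments, these became 14.7, 13.1, and 11.2, so the order of the ages depended on the scaling and no direction is read from it. The median fold enrichment over local background, which was not rescaled between samples, was 4.21 at P1, 3.87 at P8, and 3.38 at P15. Over all peaks of the samples it was 4.80, 4.60, and 4.05. These medians cover called peaks only, and depth differed between the ages. The part of depth in them was not tested.

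Among the blood-cell-only regions, those with a peak in PF15 WBC also had one more often in the younger hypothalamus. No such split of all merged regions stands beside it, so it is not read as particular to these regions. In the 506 regions where it had a peak, P1 samples held a peak in a median of 57.6%, P8 samples in 46.2%, and P15 samples in 24.4%. In the 2613 regions where it had none, the medians were 18.9, 14.7, and 7.31%. Its median scaled height in the 506 regions was 10.8 fragments, against 16.6 to 18.2 in the other WBC samples in the same regions. In the 1387 regions of the mirror set it held a peak in 78.2%, within the range of the P8 and P15 hypothalamus samples, where the other WBC samples had none by choice. Values of the library labelled PF15 WBC are therefore given apart from those of the other WBC samples. What sets it apart was not tested.

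Height was compared between ages with limma over the 376706 regions in which 3 or more of the 36 samples had a peak. A sample with no call took the value 6.43 fragments, the floor of the scale. The fragments in such a sample are not known here, so a fitted change between ages rests in part on where peaks were called. Of the 3119 blood-cell-only regions, 1767 passed this filter and 1352 did not. Of the 1767, 390 reached the filter only with their P1 peaks, 208 only with their P8 peaks, and 117 only with their P15 peaks. Where such a region was called higher at that age, it had entered through the age where it was high, and its test carries no weight. At an FDR of 0.05, 213 of the 1767 (12.1%) differed between P15 and P1, against 5.31% of all regions tested. Of these, 211 were lower at P15 (11.9%, against 2.12% of all regions) and 2 were higher (against 3.18%). Of the 211, 44 had passed the filter only through P1, and both higher ones only through P15. With such regions set aside, a step added after the data had been seen, 167 of 1377 (12.1%) were lower, against 2.12% of all regions treated the same way, and 0 of 1650 were higher, against 3.07%. Since the choice required no peak at P22, the age nearest to P15, regions that share this part of the choice, a comparison added after the data had been seen, are given too: of 76910 other regions without a peak in P22 hypothalamus, 2.12% were lower at P15, 0.133% were lower at P8 than at P1, and 0.0312% were lower at P15 than at P8. With the regions that passed only through their high age set aside here too, these shares were 2.13, 0.0857, and 0.0398%. Higher at P15 than at P1 were 75 of the 76910, and 17 of 61879 (0.0275%) with such regions set aside. The 0 of 1650 lies near this share, so it is not read as particular to the blood-cell-only regions. The other regions without a P22 hypothalamus peak were called in fewer samples, so they are not a matched background. Of the 76910, 34691 had a peak in 6 or more of the 36 samples, against 1331 of the 1767. With 6 or more required, 2064 of the 34691 were lower at P15 than at P1, against 256 of the 1331 (19.2%). No test was made of the difference between any of these shares.

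Fewer regions passed between neighbouring ages. Between P8 and P1, 16 of 1767 (0.905%) passed, all of them lower at P8, against 0.36% of all regions, 0.0863% lower and 0.274% higher. Of the 16, 8 had passed the filter only through P1, and the others were 0.581% of 1377, against 0.0636% of all regions treated the same way. Between P15 and P8, 6 (0.34%) passed, all of them lower at P15, against 0.426% of all regions, 0.154% lower and 0.272% higher. The count of 6 in both directions together is near the background, as was the share at an unadjusted p under 0.05 (210 regions or 11.9%, against 12.3% of all regions). In cohort Dev-4 alone, the only one with both ages (6 and 12 samples), 0 of 1075 regions passed between P15 and P8 in limma, against 0.0678% of all regions, with 148 (13.8%, against 6.91% of all regions) at an unadjusted p under 0.05. Fisher's exact test on the calls alone passed 49 between P15 and P1, all lower (2.77%, against 0.114% of all regions), 0 between P8 and P1 (against 0.00292%), and 0 between P15 and P8 (against 0%). At an unadjusted p under 0.05 the latter contrasts held 134 (7.58%, against 3.13% of all regions) and 163 (9.22%, against 3.83%). Leaving out the samples of a replicate number gave 6 to 19 regions between P8 and P1, the fewest without number 8 (0.347%, against 0.157% of all regions), and 1 to 8 between P15 and P8, the fewest without number 6 (0.0575%, against 0.212%).

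The direction over all regions changed with the scaling, and for P15 vs. P8 so did the standing of the blood-cell-only regions. Between P15 and P1, 11995 of all regions were higher and 7990 lower. With scaling by fragments 7063 were higher and 93889 lower, and with fold enrichment 9344 and 17172. Of the 1767 blood-cell-only regions, 36.1% were lower with fragments, against 24.9% of all regions, and 19.1% with fold enrichment, against 4.56%. Between P8 and P1, all regions went from 1031 higher and 325 lower to 1440 and 4435 with fragments and 679 and 391 with fold enrichment. Of the blood-cell-only regions 4.7% were lower with fragments, against 1.18%, and 1.64% with fold enrichment, against 0.104%. Between P15 and P8, all regions went from 1026 higher and 580 lower to 1285 and 37678 with fragments and 868 and 1207 with fold enrichment. Here 4.41% of the blood-cell-only regions were lower with fragments, fewer than the 10.0% of all regions, with a median log2 difference of -0.16 in both, and 1.02% with fold enrichment, against 0.32%.

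Among blood-cell-only regions, chr3:137013506-137014739 on Rn6 had the lowest p both between P8 and P1 and between P15 and P1. It held a peak in 12 of 12 P1 samples, at scaled heights of 13.8 to 24.8 (median = 22.0), in 6 P8 samples at 10.0 to 21.2 (median = 13.0), and in 1 P15 sample at 11.6. In WBC its height was 16.2 to 29.4 (median = 20.0). The log2 height fell by 1.13 ± 0.20 (SE) from P1 to P8 (limma, adjusted p = 0.00193), and it fell by 1.61 ± 0.20 from P1 to P15 (adjusted p = 5.45e-07). P1 hypothalamus and WBC heights overlapped.

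The region chr4:10170520-10171655 held a peak in all 12 P1 samples (10.9 to 25.5, median = 18.4), in 3 P8 samples, and in no P15 sample. Its log2 height fell by 1.12 ± 0.20 from P1 to P8 (limma, adjusted p = 0.00241), and it fell by 1.47 ± 0.20 from P1 to P15 (adjusted p = 4.2e-06). In chr2:26417490-26418131, peaks were called in 11 P1, 2 P8, and 2 P15 samples. Its log2 height fell by 0.83 ± 0.16 from P1 to P8 (limma, adjusted p = 0.00586). By calls alone, the differences between P8 and P1 in these 3 regions did not pass (Fisher's exact test, adjusted p = 1.0, 0.392, and 0.476).

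The region chr17:72210450-72211956 differed at P15, with a peak in all 12 P1 samples (19.9 to 34.1, median = 25.5), all 12 P8 samples (14.6 to 26.8, median = 19.1), and 5 P15 samples (16.9 to 19.6, median = 18.6). Its log2 height fell by 1.36 ± 0.20 from P1 to P15 (limma, adjusted p = 1.25e-05), and it fell by 1.00 ± 0.20 from P8 to P15 (adjusted p = 0.00662). Its P15 peaks were about as high as those of P8, and the lowest called height was about 2.27 times the floor. The change from P8 to P15 thus comes mainly from the 7 P15 samples without a call. In chr6:108074417-108075208, peaks were called in 11 P1, 10 P8, and 1 P15 sample, and log2 height fell by 0.99 ± 0.21 from P8 to P15 (limma, adjusted p = 0.0135). In chr12:40621687-40622293, with 9, 11, and 2 samples, it fell by 1.09 ± 0.24 (limma, adjusted p = 0.0252). In Dev-4 alone none of the 3 passed between P15 and P8 (limma, adjusted p = 0.333, 0.286, and 0.244). The call in chr6:108074417-108075208 was lost without replicate number 6 or 7 (adjusted p = 0.0872 and 0.0966). The log2 change stayed between -1.13 and -0.87 when any number was left out. The call in chr12:40621687-40622293 was lost without number 6 or 8 (0.106 and 0.161) and without number 9, 10, or 11 (0.0697, 0.0677, and 0.0712), as well as without the 3 P15 littermates of P8 samples (0.0684). Its log2 change stayed between -1.31 and -0.90. With peaks at q under 0.001 both calls were lost (0.0515 and 0.0703).

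The 2 regions that were higher at P15 than at P1 were called in few samples, and entered the fit only through their P15 peaks, so their tests are not given. In chr14:45516828-45517850, 6 P15 samples held a peak, at scaled heights of 10.4 to 17.7 (median = 10.8), and no P1 or P8 sample did. In chr19:47169171-47170408, 5 P15 samples held a peak, at 19.6 to 26.0 (median = 23.8), 1 P8 sample held one of 17.3, and no P1 sample did.

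Some regions kept a peak in nearly every younger sample. The region chr4:58499744-58500695 held one in 35 of 36 samples, with median scaled heights of 21.7 at P1, 19.5 at P8, and 13.8 at P15, and 23.3 in WBC. The change from P1 to P15 was -0.54 ± 0.18 on the log2 scale and missed the threshold (limma, adjusted p = 0.0654). The next were chr6:108830962-108832756 (34 samples), chr1:71167313-71169237 (33), chr18:32669084-32671213 (32), and chr14:83432861-83434318 (32). In chr1:71167313-71169237, 10 P1, 11 P8, and 12 P15 samples held a peak, at median heights of 11.2, 10.1, and 11.7, and WBC had a median of 11.2. All 12 P15 samples thus held a peak in a region that no P22 hypothalamus sample did. In chr14:83432861-83434318, log2 height fell by 0.91 ± 0.18 from P1 to P15 (limma, adjusted p = 0.00165).

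Among the 5 regions with the highest peaks in WBC, 1 had peaks at least as high as the lowest WBC peak in some younger hypothalamus samples and no call in others. In chr9:8415097-8415914, WBC heights were 50.1 to 67.3 (median = 63.6), and the peaks called in 10 P1, 3 P8, and 2 P15 samples lay within or above that range, at 65.7 to 83.2, 66.7 to 70.2, and 84.2 to 89.8. Their fold enrichment was 2.38 to 3.89, against 3.27 to 4.12 in WBC. All other hypothalamus samples had no call and were set to the floor, so the fitted log2 change of -2.37 ± 0.52 from P1 to P15 (limma, adjusted p = 0.00445) rests on calls and not on measured low heights. In chr4:77446828-77447301, WBC heights were 70.2 to 106.0, and 1 P15 sample held a peak of 56.4. Among the 2273 regions with a peak in some of the 36 samples, the lowest called height was over 2 times the floor in 297 and over 4 times in 4. Among the 211 regions lower at P15 than at P1, it was over 2 times the floor in 25. These ratios set heights scaled over all 60 samples against the floor of the fit to the 36, so they are approximate. The region chr10:75770358-75771225 had WBC heights of 42.7 to 58.6 and no peak in any of the 36 samples. In chr20:44421416-44422384, 5 of the 36 samples held a peak, and in chr10:56836199-56837442, 2 did, all of them below the lowest WBC height.

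Shares of regions with a peak overlapped between prenatal groups at every age. At P1 they were 21.8, 22.8, 25.6, and 28.6% in C, 23.2, 27.8, 29.0, and 32.5% in PF, and 22.8, 24.6, 24.7, and 26.8% in PAE. At P8 they were 14.0, 16.8, 18.3, and 23.3% in C, 16.8, 19.5, 20.2, and 21.2% in PF, and 19.6, 21.0, 21.7, and 22.6% in PAE. At P15 they were 10.0, 11.4, 11.9, and 16.1% in C, 5.35, 8.69, 10.3, and 11.2% in PF, and 6.67, 6.73, 7.63, and 16.3% in PAE. Depth varied among the P15 samples. The 3 shallowest, PF12 (14545396 fragments), PAE10 (16818584), and PAE11 (16867103), had the 3 lowest shares, and the deepest, PAE12 (22156238), had the highest. Other samples did not follow this order: C11 had 21249624 fragments and 10.0%, PAE9 20803993 and 7.63%, and C12 20234366 and 16.1%. The part of depth in these shares was not tested. At P15, a peak in all 4 samples of a group was seen in 32 regions in C (1.03%), 7 in PF (0.224%), and 9 in PAE (0.289%), and over all merged regions in 12.7, 10.6, and 10.5%. At P1 it was seen in 190, 271, and 214 (6.09, 8.69, and 6.86%, against 14.8, 16.3, and 14.9%), and at P8 in 66, 101, and 109 (2.12, 3.24, and 3.49%, against 13.6, 16.1, and 16.6%). The order of the groups was the same over all regions at P1 and P8, and C was highest in both at P15.

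No blood-cell-only region passed in a comparison of prenatal groups in the hypothalamus of P1 to P15 (limma with group, extraction round, and breeding cohort). Of 1767 tested, 0 passed for PAE vs. C, 0 for PAE vs. PF, and 0 for PF vs. C, against 0.000265%, 0%, and 0% of all regions. At an unadjusted p under 0.05 there were 87, 67, and 88, or 4.92, 3.79, and 4.98% of the regions, against 4.89, 4.7, and 4.99% of all regions tested. Fisher's exact test on calls passed 0 in each contrast, with 13, 12, and 17 (0.736, 0.679, and 0.962%, against 0.917, 0.946, and 0.93% of all regions) at an unadjusted p under 0.05. The median log2 difference over the 1767 regions was -0.01 for PAE vs. C, 0.01 for PAE vs. PF, and -0.01 for PF vs. C. The interaction of group and age passed 0 of 1767, against 0.00398% of all regions, with 96 (5.43%, against 4.95%) at an unadjusted p under 0.05.

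Among the 11 WBC samples, all 3119 regions passed the filter, which the choice ensured, and 0 passed in any of the 3 group contrasts (limma with group and breeding cohort). Of all 256224 regions tested, 0.000781% passed for PAE vs. C, 0.00273% for PAE vs. PF, and 0.00781% for PF vs. C. For PAE vs. C and PAE vs. PF all of these were higher in PAE. For PF vs. C 0.00273% were higher and 0.00507% lower. At an unadjusted p under 0.05 there were 47, 63, and 53 blood-cell-only regions, or 1.51, 2.02, and 1.7%, against 4.57, 5.07, and 4.95% of all regions. The choice required a peak in each of these same samples, so no blood-cell-only region lacked a call in any of them, while other regions did. The shares are therefore not alike in what they count, and nothing is read from the low shares or from the counts of 0. Without WBC C14, limma again passed 0 regions in each contrast, with 47, 60, and 53 (1.51, 1.92, and 1.7%, against 4.75, 5.02, and 5.12% of all regions) at an unadjusted p under 0.05. With PF15 WBC included it passed 0 too, with 4, 151, and 172 (0.128, 4.84, and 5.51%, against 3.9, 5.1, and 4.84%), and the median log2 difference over the 3119 regions was 0.41 for PAE vs. PF and -0.41 for PF vs. C, against 0.04 and -0.02 over all regions. The choice required a peak in every other WBC sample but not in PF15 WBC, which had none in 2613 regions and took the floor there. These differences thus follow from the choice, and nothing is read from them.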

How the data were processed

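Per the file headers, the authors called peaks in each sample separately with MACS2 2.1.0.20140616 on Rn6, with no input control and a q-value cutoff of 0.05. The deposited signal is the summit height in fragments, not scaled to depth. Fold enrichment, also deposited, is the ratio of this height to local background. The files as deposited also give each peak's p-value and q-value as -log10. The members and lists were chosen with earlier results of these data known.

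Summits sharing a peak were joined. Heights were divided by a factor per sample, its median ratio to the average of all samples in regions called in every one. Scaled heights given in the text used all 60 samples for this, while each fit used its own samples. In the fits, heights were floored at the median of the samples' smallest heights (6.43 in hypothalamus, 5.87 in WBC). Comparisons across all regions used limma 3.58.1 in R 4.3.3 with a trend and Benjamini-Hochberg adjustment. Age fits held age and group, group fits in hypothalamus held extraction round and breeding cohort, and those in WBC held cohort. They were tested on simulated data. There, few of the smaller changes were found by the interaction and WBC fits, and false calls exceeded the nominal share in some runs of each fit. Other steps used Python 3.11.15, numpy 2.4.6, and pandas 2.3.3. Regions named in the text were those with peaks in the most of the 36 samples (5), the highest in WBC (5), up to 3 per direction with the lowest p past the threshold in each contrast, the 3 fullest windows, and any that overlapped a listed DMR. Genes and sequences were not used here, since no Rn6 annotation was at hand. Read counts were not used here.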

Additional observations from a re-analysis of the deposited data

Results flagged for a closer look

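Of 66 combinations of a measure and a group of 4 samples, 10 held a sample far from the other 3, where chance gives about 1 in 20. The same samples recur across measures, and some libraries were flagged under more than 1. WBC heights in these regions also depend on the choice, which required a peak in the other WBC samples but not in PF15 WBC. The count of 10 is therefore not read against chance. The share of blood-cell-only regions with a peak was 16.3% in P15 PAE12, against 6.67 to 7.63% in the other P15 PAE samples. Its 22156238 fragments were the most of any sample. The median scaled height in these regions was 10.8 in PF15 WBC, over the 506 it held, against 18.8 to 18.9 in the other PF samples over all 3119, and 18.1 in C13 WBC, against 19.0 to 19.2 in the other C samples.

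The WBC library labelled C14 had 1631 peaks on Y contigs and X peaks at 1.05% of the peaks on chromosomes 1 to 20. Peaks on Y contigs also stood apart in P22 hypothalamus PAE16 (201), in P1 C4 (175, against 88 to 98 in the other P1 C samples but 76 to 249 in the P1 PF and PAE samples), and, on the low side, in PF15 WBC (68, against 78 to 79). The number of fragments stood apart in P1 PAE3 (16039278) and in PF16 WBC (11910384). The causes were not tested.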

How the results depend on the processing

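The number of blood-cell-only regions (3119) was 506 when PF15 WBC had to hold a peak too, and 4070 to 5110 without the P22 samples of each replicate number, since fewer samples had to meet the condition. It was 3417 with peaks at q under 0.001, 3152 at 100 bp overlap, and 3199 when only the 24 P22 files were merged. The median shares became 57.6, 46.2, and 24.4% at P1, P8, and P15 in the 506 regions, and ranged from 24.6 to 29.9, 19.6 to 24.7, and 10.0 to 13.5% when a replicate number was left out. They were 25.0, 19.9, and 10.1% when only the 24 P22 files were merged. When a younger peak had to overlap the stretch covered by peaks of all 11 WBC samples, which 3023 of the 3119 regions had, they were 23.3, 18.2, and 8.82%. The order of the ages was the same in all alternatives of the share. Fold enrichment gave ratios to all peaks of 0.872, 0.847, and 0.834, and fragment scaling gave heights of 14.7, 13.1, and 11.2, which turned the order of P1 and P15.

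Age calls depended on the setting, over all regions too. For P8 vs. P1, P15 vs. P1, and P15 vs. P8, the 16, 213, and 6 calls became 83, 640, and 79 with fragment scaling, which moved the median log2 difference of all regions from -0.01 to -0.22 between P1 and P15 and from -0.02 to -0.16 between P8 and P15. They became 29, 339, and 18 with fold enrichment, 0, 49, and 0 with Fisher's exact test, and 36, 311, and 15 with extraction round as a random block, whose estimated correlation was negative (-0.02). With that block they were 2.04, 17.6, and 0.849% of the regions tested, against 0.724, 8.42, and 0.995% of all regions. With a peak required in 6 or more samples they were 24, 258, and 8 of 1331 (1.8, 19.4, and 0.601%, against 0.566, 8.16, and 0.758%). With q under 0.001 they were 9, 133, and 4 of 1477 (0.609, 9.0, and 0.271%, against 0.271, 4.05, and 0.382%). Without the 3 P15 samples that share a litter with P8 they were 10, 153, and 5 of 1740 (0.575, 8.79, and 0.287%, against 0.332, 4.53, and 0.491%), and in Dev-4 0 for P15 vs. P8, against 0.0678%. Without each replicate number they ranged from 6 to 19, 143 to 212, and 1 to 8. For P15 vs. P1 the fewest were 8.17% without number 11, against 4.6% of all regions, and the most 12.3% without number 7, against 5.0%. None of the 8 regions named for an age contrast reversed in that contrast, and the other named regions were not examined for this. The causes were not tested.

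Group contrasts passed 0 of these regions in each alternative run, and the interaction 0 with the replicate block, the only alternative it had (89 at an unadjusted p under 0.05, by limma). Same-numbered samples did not deviate together (0 of 46 pairs had a correlation over 0.1), so the block has no support from the data. With the replicate block, calls over all regions went from 15 to 2 for the interaction, and in WBC from 7 to 2 for PAE vs. PF and from 20 to 7 for PF vs. C. The alternatives without WBC C14 or hypothalamus PAE16 were chosen after seeing the data.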
